A study of Homo sapiens with 6 samples.

Results

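The genes described here are 10 enzymes of de novo nucleotide synthesis: PPAT, GART, PAICS, ADSL, ATIC, IMPDH1 and IMPDH2 of the purine route and CAD, DHODH and UMPS of the pyrimidine route. They were chosen by name, as the entries of the 6 count tables whose Entrez identifier belongs to these symbols, and all 10 were found among 25420 genes. MOLM-13 is an established human acute myeloid leukaemia line, and C646 is an inhibitor of the acetyltransferases CBP and p300, coactivators that acetylate histones at promoters and enhancers. The cells were kept for 2 h in 10 µM C646 or in DMSO, the solvent control, and both groups received 100 µM 4-thiouridine (4sU) in the last 1 h. Each group holds 3 libraries of the same line, treated at the same dose and for the same time. The labels do not say whether the libraries came from separate cultures, so that the p-values measure the spread between these libraries, which may be technical. In SLAM-seq, alkylation turns each 4sU in an RNA into a base that sequencing shows as a T > C conversion. T > C reads, those counted as carrying such a conversion, are taken here as RNA made during labelling, and all reads of a gene as its total RNA. The comparison asks how far C646 changed the new and the total RNA of these enzymes.

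Purine nucleotides are built step by step on a ribose phosphate, and the route ends in IMP, from which AMP and GMP are made. PPAT catalyses the committed first step, GART and PAICS are multifunctional enzymes of the middle of the route, ADSL acts in the route to IMP and again in the making of AMP, and ATIC closes the ring to give IMP. IMPDH1 and IMPDH2 oxidise IMP on the way to GMP and are the targets of mycophenolic acid. In the pyrimidine route, CAD carries the first activities on a single chain, DHODH oxidises dihydroorotate at the inner mitochondrial membrane, and UMPS makes UMP from orotate. Dividing leukaemia cells use both routes for RNA and DNA, and DHODH inhibitors have been studied in acute myeloid leukaemia.

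Many promoters of this pathway are known to carry the E-box CACGTG, a palindrome bound by MYC with MAX and by related factors. The sequences below are shown because PPAT and PAICS share a divergent promoter region, and the same E-box lies in both of their windows. Windows of 300 bases around annotated start sites, from 250 bases before to 50 after, were taken from RefSeq on GRCh38.p14. They were available for 8 of the 10 genes, all but ADSL and IMPDH2, and were searched for CACGTG, which reads the same on both strands. The motif was in the windows of 4 of these 8 genes, PPAT, PAICS, ATIC and DHODH, and in 8.77% of all 27305 genes with a window (7.26% of 35116 windows). Capitals mark the motif, and the sequences are given 5′ to 3′ on the strand of the gene.
PPAT, chr4:56435782-56435807, minus strand: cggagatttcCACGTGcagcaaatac
PAICS, chr4:56435782-56435801, plus strand: gtatttgctgCACGTGgaaa
ATIC, chr2:215312003-215312028, plus strand: gccggcgggcCACGTGataagcccgg
ATIC, chr2:215312078-215312103, plus strand: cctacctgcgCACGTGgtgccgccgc
DHODH, chr16:72008575-72008600, plus strand: cgctactgcgCACGTGcacccaacca

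The start site of PPAT and the nearest annotated one of PAICS lay 137 bases apart and pointed away from each other, so that 236 bases of their windows were the same. The shared E-box, at chr4:56435792-56435797, was on the PAICS side of both start sites. PAICS has 3 annotated windows, with start sites at −25108, 137 and 645 bases from that of PPAT along the plus strand. The second is the one mapped here. A match to the letters is a description of the window, and no binding was measured here.

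**Figure D1:**
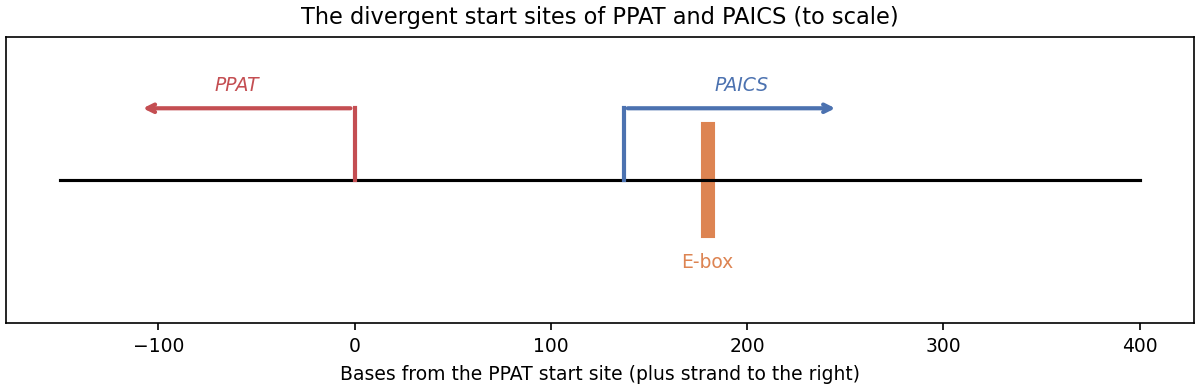
Map of the PPAT start site and the nearest annotated PAICS start site, drawn to scale, with the distance in bases from the PPAT start site on the horizontal axis and arrows for the direction of transcription. The start sites are 137 bases apart, and the orange bar is the E-box that both windows hold.

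The depth was 7252597 to 10225448 reads on 3′ UTRs in a library, of which 477824 to 833410 were T > C reads. T > C reads made up 8.79 ± 0.06% of the reads in DMSO and 6.48 ± 0.20% in C646 (SD, n = 3 each). The mean number of conversions per T > C read was 2.051 ± 0.058 in DMSO and 1.895 ± 0.020 in C646 (SD, n = 3 each). It was between 1.87 and 2.11 over the 6 libraries, and each C646 library was below each DMSO library. Whether this difference came from the labelling was not tested. Each of the 9 myeloid and MOLM-13 markers was above 1 CPM in each library, with a summed level of 3617 to 3937 CPM in DMSO and 3766 to 4100 CPM in C646. The 9 markers of other cell types summed to 145 to 158 CPM in DMSO and 97.9 to 133 CPM in C646, nearly all of it PECAM1, which leukocytes carry too, and CD3E, HBB and ALB were at 0. LYZ made up most of the myeloid sum, at 2610 to 2898 CPM in DMSO and 2884 to 3141 CPM in C646. Without overlap between groups, CD33, SPI1 and CSF1R were lower in C646 (SPI1 at 168 to 244 against 70.0 to 111 CPM) and FLT3 and KMT2A higher (FLT3 at 102 to 133 against 173 to 209 CPM). Of the other list PECAM1 was lower, at 143 to 156 against 88.8 to 125 CPM, and COL1A1, at 0.81 to 2.32 against 5.69 to 6.75 CPM, and EPCAM, at 0.53 or less against 0.69 to 1.85 CPM, were higher. In all reads, 23.1% of 10851 tested genes had each C646 library below each DMSO library, and the share in the other direction was not computed. Whether the marker differences had a part in the results was not tested.

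New RNA of 8 of the 10 enzymes was lower in C646, and that of none was higher. The 8 were PPAT, GART, ADSL, ATIC and IMPDH1 of the purine route and CAD, DHODH and UMPS, the 3 pyrimidine enzymes. PAICS and IMPDH2 did not pass the test. Genes were called at an adjusted p of at most 0.01 (edgeR quasi-likelihood test, Benjamini-Hochberg over 7722 genes) and an absolute log2 fold change (FC) of at least 1. By the same rule 33.0% of all tested genes were lower and 2.97% higher, and the 8 members stand against that share. The median log2 FC was −1.79 over the 10 enzymes and −0.83 over all tested genes, and 8 of the 10 lay below the median of all. The same 8 members had an adjusted p of at most 0.01 with no cutoff on the fold, as 38.0% of all tested genes did on the lower side. In 9 of the 10, each C646 library was below each DMSO library, which was so for 55.8% of all tested genes. At an unadjusted p under 0.05, 9 members were lower and 0 higher in edgeR and in DESeq2, where 54.8% and 51.7% of all tested genes were lower.

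These calls set T > C reads against all reads of the library. When the T > C reads were scaled among themselves by TMM, which moved the median log2 FC of all tested genes from −0.83 to −0.0007, the calls over all genes went from 2548 lower and 229 higher to 613 lower and 699 higher. Under that scaling, 3 members were lower, PPAT, IMPDH1 and DHODH. PAICS and IMPDH2 then had log2 FCs of 0.43 and 0.29, so that their direction turns with the scaling, and neither was called. The 6 libraries hold no unlabelled sample, so that the T > C reads that arise without 4sU were not measured here.

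**Figure D2:**
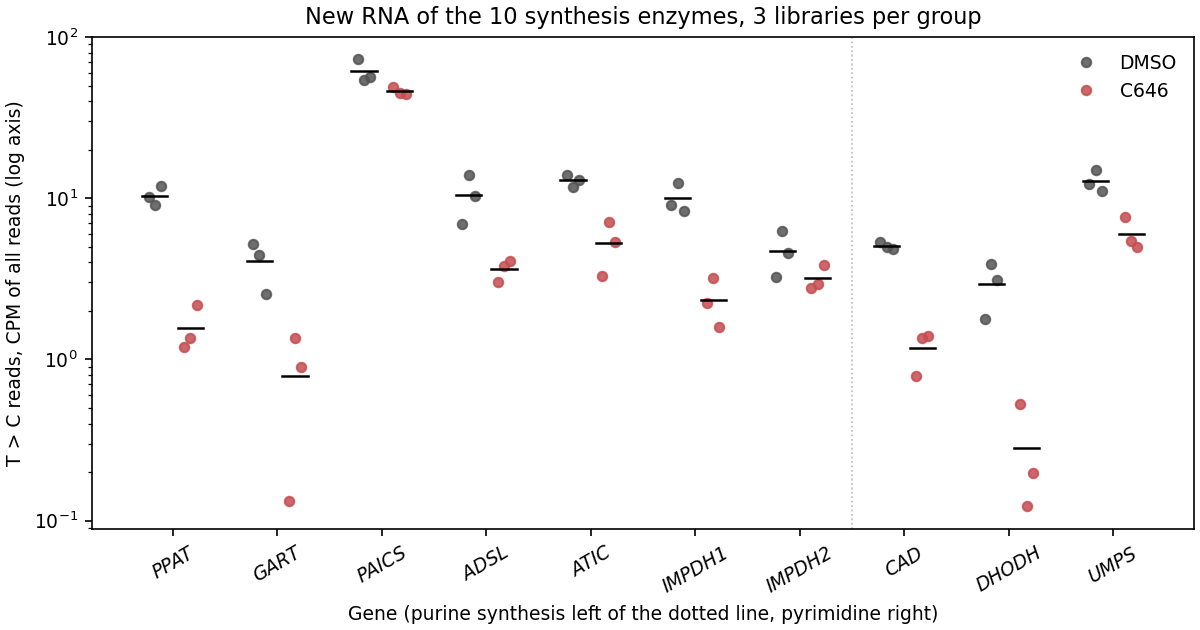
T > C reads of each enzyme in CPM of all reads (log axis), for 3 DMSO libraries (grey) and 3 C646 libraries (red), with the mean as a line. The C646 points lie below the DMSO points for all genes but IMPDH2, and PAICS has the highest level in both groups.

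PPAT, with a single 3′ UTR entry at chr4:56393363-56395351 on the minus strand, had T > C read numbers of 97, 65 and 88 in DMSO, in the order of the replicate numbers, and of 9, 11 and 22 in C646. Its level in new RNA went from 10.4 ± 1.4 to 1.57 ± 0.53 CPM (SD, n = 3 each). The groups were far apart, with a log2 FC of −2.68 ± 0.33 (SE) and an adjusted p of 1.30e-07 in edgeR. Total PPAT RNA, at 381, 245 and 327 reads in DMSO and 252, 241 and 322 in C646, did not pass the test (log2 FC −0.32, edgeR adjusted p = 0.145).

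GART had 49, 32 and 19 T > C reads in DMSO and 1, 11 and 9 in C646, the lowest sum of the purine enzymes. The groups did not overlap in CPM, and the log2 FC was −2.32 ± 0.54, with an edgeR adjusted p of 0.000723. Without DMSO replicate 1 the log2 FC was −2.10 with an adjusted p of 0.0115 in edgeR, just past the cutoff. All these reads lay on the 3′ UTR entry at chr21:33524010-33524764, on the minus strand, where the annotated short form of GART ends. The entry at the end of the full-length form, at chr21:33503931-33504123, has a copy with 0 mismatches on an alternative contig, and both list 0 reads in each library. The GART values are therefore those of the short form's 3′ end.

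PAICS, at chr4:56459539-56461368 on the plus strand, had by far the most T > C reads of the 10 genes. The DMSO libraries held 692, 388 and 422 of them and the C646 libraries 369, 368 and 445. Scaled to the library, the C646 values lay between 44.1 and 48.8 CPM and the DMSO values between 53.8 and 72.9 CPM. The groups did not overlap, but the log2 FC of −0.41 ± 0.16 did not pass the test (edgeR adjusted p = 0.0303). The PAICS T > C reads held 1.37 ± 0.05 conversions each in DMSO and 1.07 ± 0.06 in C646 (SD, n = 3 each), or about 1 in C646. The median over the tested genes was 2.11 in DMSO and 1.82 in C646. IMPDH2 stood at 1.10 ± 0.23 and 1.16 ± 0.24, ADSL at 1.203 ± 0.210 and 1.16 ± 0.30, and ATIC at 1.65 ± 0.06 and 1.04 ± 0.11. In some libraries of ADSL, ATIC and IMPDH2 the conversions listed on the entry were fewer than the T > C reads, as with 19 conversions for 23 T > C reads of ADSL in C646 replicate 1. Without an unlabelled library, how many T > C reads would appear without 4sU was not tested, which limits the T > C values of these 4 genes in particular, called or not.

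PPAT and PAICS have annotated start sites in the region mapped above and encode enzymes of the same route. Which PAICS start site these cells use was not measured. The ratio of PPAT to PAICS T > C reads within a library was between 0.140 and 0.209 in DMSO and between 0.0244 and 0.0494 in C646. The difference was −2.36 on the log2 scale, and lay between −2.65 and −2.14 with any 1 library removed. The exact permutation test gave p = 0.1, the smallest two-sided value that 3 libraries against 3 allow. For all reads the ratio differed by −0.18 (exact permutation p = 0.2). The PPAT T > C reads held 2.55 ± 0.27 conversions each in DMSO and 1.66 ± 0.58 in C646 (SD, n = 3 each), more than those of PAICS in DMSO, so that the ratio sets unlike reads against each other, and PPAT itself fell. This pair, and that of the IMPDH genes, was chosen after its values were seen.

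ADSL, at chr22:40366523-40366748 on the plus strand, had 66, 101 and 77 T > C reads in DMSO and 23, 31 and 41 in C646. Each C646 library was below each DMSO library in CPM, with a log2 FC of −1.50 ± 0.30 (edgeR adjusted p = 0.000138). ATIC, at chr2:215349656-215349773 on the plus strand, had 133, 85 and 96 T > C reads in DMSO and 25, 58 and 54 in C646. Its log2 FC was −1.29 ± 0.27 (edgeR adjusted p = 0.000198), and C646 replicate 1 was the lowest library.

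The IMPDH genes encode closely related enzymes of the same step. IMPDH1, at chr7:128392277-128393006 on the minus strand, had 86, 90 and 62 T > C reads in DMSO and 17, 26 and 16 in C646. Its log2 FC was −2.10 ± 0.33 (edgeR adjusted p = 4.89e-06). IMPDH2, at chr3:49024329-49024382 on the minus strand, had 31, 45 and 34 in DMSO and 21, 24 and 39 in C646. The IMPDH2 groups overlapped, and its log2 FC of −0.53 ± 0.37 did not pass the test (edgeR adjusted p = 0.216). The ratio of IMPDH1 to IMPDH2 T > C reads was between 1.82 and 2.77 in DMSO and between 0.410 and 1.08 in C646. This was a difference of −1.60 on the log2 scale, with an exact permutation p of 0.1, the smallest possible. In DMSO the T > C reads held 1.97 ± 0.32 conversions each for IMPDH1 and 1.10 ± 0.23 for IMPDH2 (SD, n = 3 each). This ratio, too, sets unlike reads against each other. In all reads the ratio differed by −0.62 (exact permutation p = 0.1). The IMPDH2 entry is 54 bases long with 16 T bases, which limits how many conversions it can show.

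CAD, at chr2:27243519-27243792 on the plus strand, had 51, 36 and 36 T > C reads in DMSO and 6, 11 and 14 in C646. Its log2 FC was −2.08 ± 0.43 (edgeR adjusted p = 0.000174), and the groups were well apart. DHODH, at chr16:72024200-72025417 on the plus strand, had the fewest T > C reads, 17, 28 and 23 in DMSO and 4, 1 and 2 in C646. Its log2 FC of −3.33 ± 0.66 was the lowest of the 10 (edgeR adjusted p = 0.000116). It was −4.02 without C646 replicate 1, which held 4 of the 7 T > C reads of that group, and −3.59 to −3.01 with any other library removed. In sum, 68 of 628 DHODH reads were T > C reads in DMSO and 7 of 465 in C646. The ratio of these shares was 0.139, with an exact 95% interval of 0.0539 to 0.302 that covers counting error only. UMPS, at chr3:124744085-124749272 on the plus strand, had 116, 108 and 82 T > C reads in DMSO and 58, 44 and 50 in C646. UMPS passed narrowly, with a log2 FC of −1.09 ± 0.26 (edgeR adjusted p = 0.000699). It missed the fold cutoff without DMSO replicate 2 and without C646 replicate 3, at −0.97 and −0.96.

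Total RNA of the 10 enzymes moved less. None was called (edgeR and DESeq2 each 0 lower and 0 higher, with 5 members lower at an unadjusted p under 0.05, as 20.5% of all tested genes were with either tool). By the rule for a call, 1.88% of 10851 tested genes were lower and 5.89% higher. The log2 FC was below 0 for all 10 enzymes, with a median of −0.39 against −0.003 over all tested genes. When libraries were scaled by all filtered reads, those of ATIC, IMPDH2 and PAICS were above 0, at 0.014, 0.16 and 0.069. The C646 libraries were each below the DMSO libraries in 7 of the 10, all but PAICS, ATIC and IMPDH2, and in 23.1% of all tested genes.

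IMPDH1 and CAD had an adjusted p of at most 0.01 in total RNA, at a smaller fold than the cutoff, as 6.28% of all tested genes did on the lower side. IMPDH1 had 1214, 1081 and 931 reads in DMSO and 731, 770 and 684 in C646 (log2 FC −0.64 ± 0.16, edgeR adjusted p = 0.00687). CAD had 750, 615 and 547 reads in DMSO and 426, 385 and 510 in C646 (log2 FC −0.63 ± 0.14, edgeR adjusted p = 0.00435). Scaled by all filtered reads, their adjusted p-values were 0.0338 and 0.0314 in edgeR. With single libraries left out they reached 0.0262 for IMPDH1 (without DMSO replicate 2) and 0.0355 for CAD (without C646 replicate 2). With the replicate number as a block, ADSL had an adjusted p of 0.00428 in edgeR as well, against 0.0283 without the block. PAICS, the most abundant, stood at 277 ± 26 CPM in DMSO and 253 ± 13 CPM in C646, and IMPDH2 at 150 ± 26 and 145 ± 4 CPM (SD, n = 3 each).

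Whether new RNA fell more than total RNA of the same gene was tested with the odds of T > C reads against the other reads, which need no scaling between libraries. The odds do not account for a difference in labelling between the groups, which was not tested. The odds were lower in C646 for PPAT, GART, ATIC, IMPDH1, CAD and DHODH, 6 of the 10, and higher for none. By the same rule 38.3% of all tested genes had lower odds and 0.79% higher. The median log2 difference was −1.33 over the 10 enzymes and −1.004 over all tested genes, and 6 of the 10 lay below the latter. The log2 difference in odds was −2.74 ± 0.36 for PPAT (edgeR adjusted p = 1.53e-06) and −2.93 ± 0.58 for DHODH (edgeR adjusted p = 0.000204). ADSL lay just outside the fold cutoff, at −0.98 ± 0.25 (edgeR adjusted p = 0.00197), and UMPS at −0.81 ± 0.26 missed the p cutoff as well (edgeR adjusted p = 0.0105). PAICS and IMPDH2 had the smallest differences, −0.34 ± 0.16 and −0.48 ± 0.27, and neither passed. GART was not called without DMSO replicate 1, DMSO replicate 2 or C646 replicate 1, and ATIC not without C646 replicate 1. ADSL was called without DMSO replicate 1 or C646 replicate 3, and UMPS without C646 replicate 1.

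**Figure D3:**
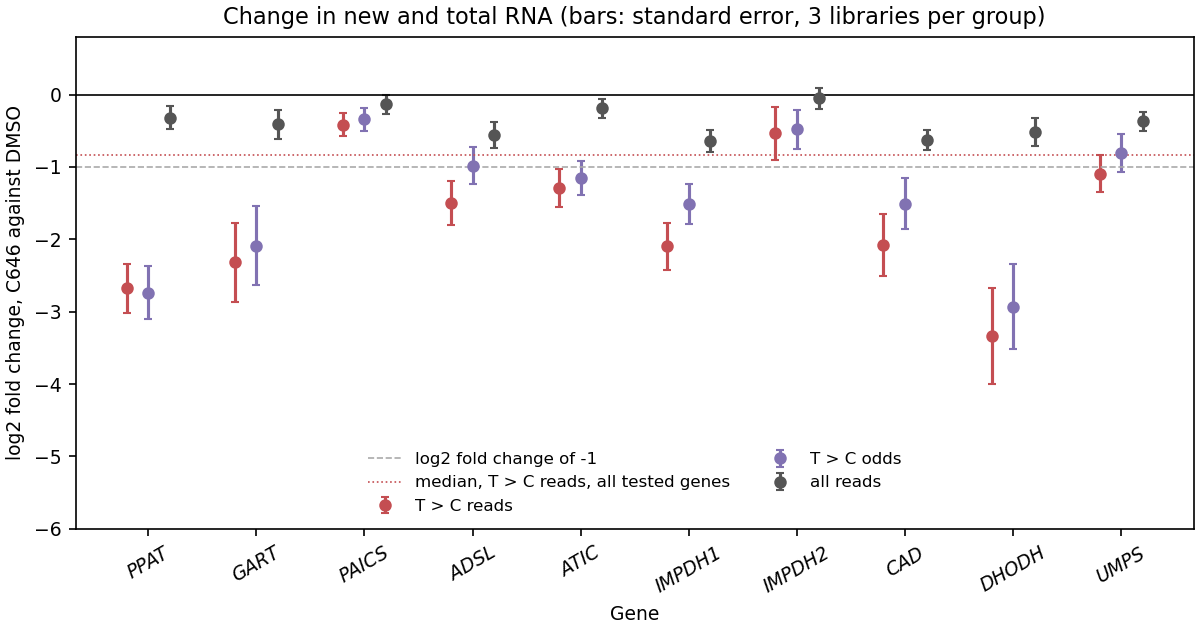
Log2 fold change in C646 against DMSO for the T > C reads (red), the T > C odds (purple) and all reads (grey) of each enzyme, with standard errors. The grey points lie between −0.64 and −0.047, while the red points reach −3.33 for DHODH, and PAICS and IMPDH2 lie above the dotted median of all tested genes.

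In DMSO the enzymes differed in the share of their reads that were T > C reads. PPAT was highest at 26.3 ± 0.8%, followed by PAICS at 22.0 ± 1.9%, GART at 17.2 ± 5.3%, UMPS at 13.3 ± 1.7% and DHODH at 11.0 ± 3.3%. IMPDH1, ADSL, CAD and ATIC followed between 7.36% and 5.92%, and IMPDH2 was lowest at 3.08 ± 0.61% (SD, n = 3 each). Neighbours in this order overlapped between libraries except PPAT with PAICS and ATIC with IMPDH2. In C646, PAICS was highest at 18.2 ± 0.8% and PPAT stood at 4.99 ± 1.67%. The PAICS T > C reads there held 1.07 ± 0.06 conversions each (SD, n = 3), so that the limit given for PAICS above also holds for its share.

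**Figure D4:**
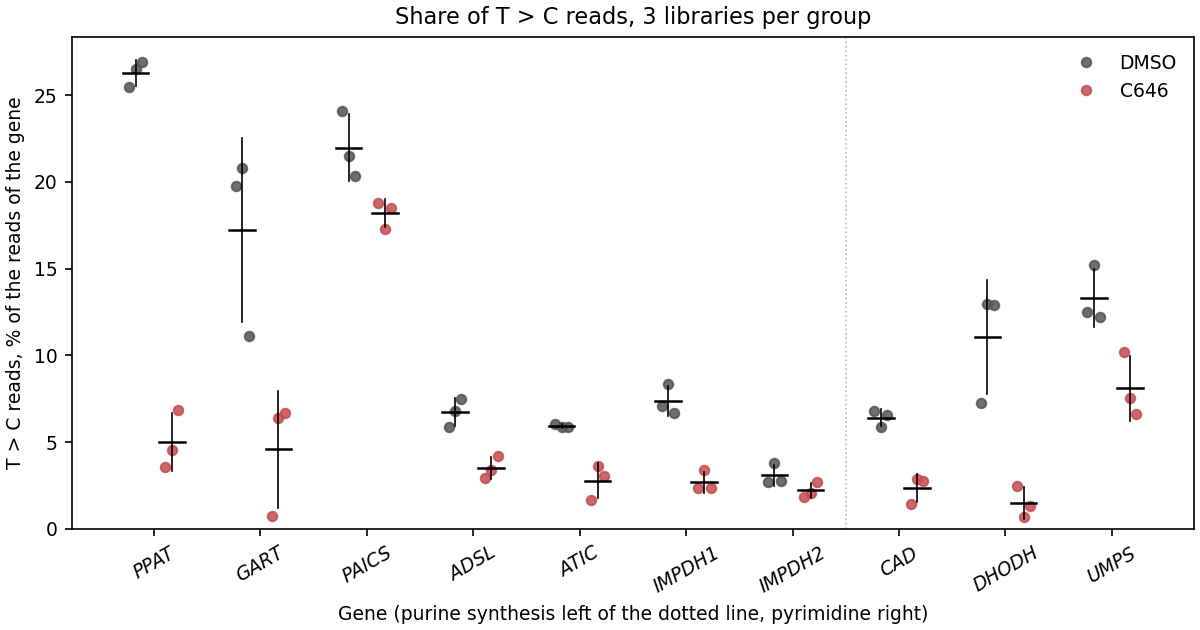
T > C reads as a percentage of the reads of each enzyme, for 3 DMSO libraries (grey) and 3 C646 libraries (red), with mean and SD as lines. PPAT goes from 26.3% to 4.99%, while PAICS goes from 22.0% to 18.2%. The PAICS T > C reads held 1.07 ± 0.06 conversions each in C646 (SD, n = 3).

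A read of one gene can cover more T bases than a read of another. Reads of ADSL covered 12.2 and those of IMPDH2 15.9 T bases on average in DMSO, against 41.3 for GART. Counted per 100 covered T bases, conversions in DMSO were 1.92 ± 0.24 for PPAT, 1.05 ± 0.18 for GART and 0.926 ± 0.089 for UMPS. They were 0.396 ± 0.031 for ATIC and 0.214 ± 0.059 for IMPDH2, at the low end (SD, n = 3 each). In this order PPAT and GART did not overlap, nor did ATIC and IMPDH2, and all other neighbours did. PAICS, next to PPAT by share, came after GART and UMPS by rate, at 0.868 ± 0.093, although its reads covered 34.7 T bases on average against 35.0 for PPAT. In C646 the rate was 0.238 ± 0.140 for PPAT, 0.574 ± 0.020 for PAICS and 0.162 ± 0.051 for IMPDH2. The C646 libraries were each below the DMSO libraries for 9 genes (exact permutation p = 0.1 each, the smallest possible), as they were for 65.5% of all tested genes, and IMPDH2 had p = 0.4 in the exact permutation test. Over all 3′ UTRs the rate was 0.650 ± 0.015 in DMSO and 0.423 ± 0.008 in C646.

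Beyond the 10 enzymes, 49 other genes of nucleotide metabolism were listed in 5 groups, and 35 had enough T > C reads to be tested. New RNA of 17 was lower in C646 (48.6%, against 33.0% of all tested genes) and that of 0 was higher, with a median log2 FC of −1.12. Under TMM on the T > C reads, 5 were lower and 1 higher. In the rest of the de novo routes 3 of 5 tested genes were lower. CTPS1, which makes CTP from UTP, had 98, 67 and 61 T > C reads in DMSO and 18, 18 and 10 in C646 (log2 FC −2.34 ± 0.35, edgeR adjusted p = 2.20e-06). ADSS2, which starts the branch from IMP to AMP, had a log2 FC of −1.88 ± 0.42 and PRPS2, which makes the activated ribose for both routes, one of −1.73 ± 0.51. PFAS, of the middle of the purine route, stood at −1.44 ± 0.53 (edgeR adjusted p = 0.0228) and PRPS1 at −1.05 ± 0.42 (edgeR adjusted p = 0.0357), and neither passed. Single libraries decided these values: PFAS, with 14, 25 and 1 T > C reads in C646, was at −2.28 and called without C646 replicate 2 and at −0.84 without C646 replicate 3. PRPS1, with 10, 11 and 43, was at −1.87 and called without C646 replicate 3. PRPS2 was not called without DMSO replicate 2 or 3 or C646 replicate 1 or 2 (edgeR adjusted p up to 0.0730). GMPS, ADSS1 and CTPS2 had too few T > C reads to be tested.

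Of the deoxynucleotide genes 3 of 8 were lower. RRM2, the regulated subunit of ribonucleotide reductase, went from 526, 502 and 379 T > C reads in DMSO to 106, 85 and 106 in C646 (log2 FC −2.34 ± 0.19, edgeR adjusted p = 3.71e-11). RRM2B, the p53-inducible form of that subunit, had a log2 FC of −0.27 ± 0.21 and did not pass. Of the nucleotide kinases 3 of 6 were lower, from NME1 at −2.03 ± 0.24 to GUK1, which phosphorylates GMP, at 0.46 ± 0.46 and not called. CMPK2, called at −1.96 ± 0.58, was not called with any single library left out (edgeR adjusted p of 0.0101 to 0.0807). Of the genes of breakdown and interconversion 3 of 6 were lower, from the nucleotidase NT5C3A at −1.49 ± 0.43 to AMPD2, an AMP deaminase, at −0.36 ± 0.38 and not called. NT5C3A was not called without DMSO replicate 1 or C646 replicate 2 or 3 (edgeR adjusted p up to 0.0486).

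Salvage genes, which recycle bases and nucleosides, had 5 of 10 lower. UCK1, a uridine-cytidine kinase, had 15, 20 and 21 T > C reads in DMSO and 1, 0 and 10 in C646 (log2 FC −2.49 ± 0.70, edgeR adjusted p = 0.00363), with C646 replicate 3 apart from the others. UCK1 was at −4.91 without that library, and was not called without DMSO replicate 2 or 3 or C646 replicate 1 or 2 (edgeR adjusted p up to 0.0313). TK1, called at −2.22 ± 0.60, was not called without DMSO replicate 2 or 3 or C646 replicate 3 (edgeR adjusted p up to 0.0338). HPRT1, which recycles hypoxanthine and guanine, had 20, 9 and 17 in DMSO and 25, 25 and 31 in C646, and its log2 FC of 0.73 ± 0.45 did not pass. In total RNA, 0 of 45 tested genes of these groups were lower and 1, the uridine-cytidine kinase family gene UCKL1, was higher, at a log2 FC of 1.05 (edgeR adjusted p = 0.00382).

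**Figure D5:**
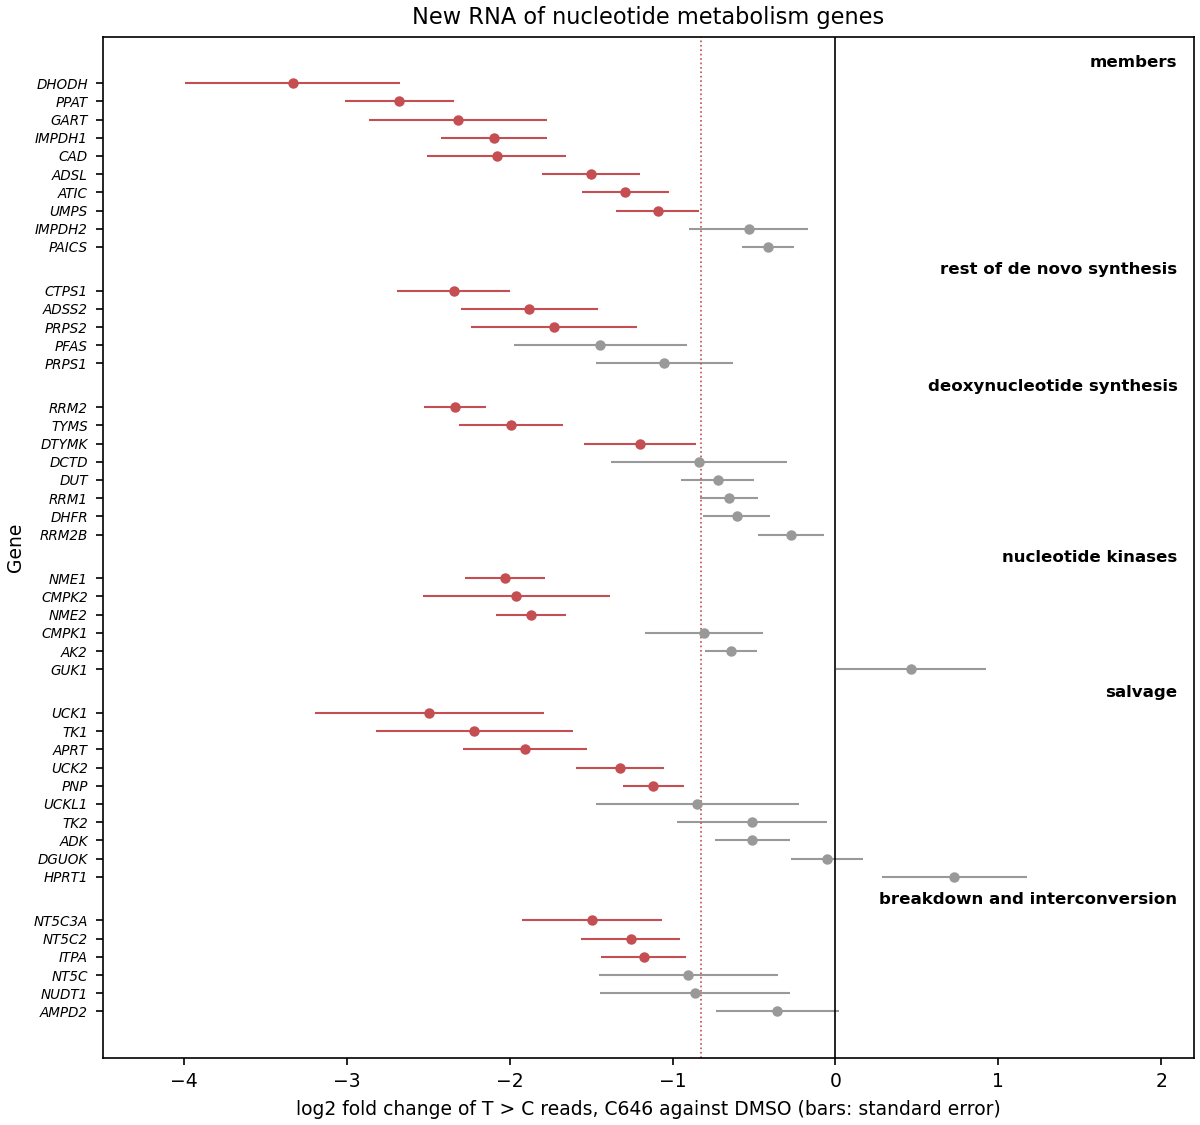
Log2 fold change of T > C reads with its standard error for the 10 enzymes (members) and 35 other genes of nucleotide metabolism by group, red where called lower and grey where not. The dotted line is the median of all tested genes, and GUK1 and HPRT1 are the points above 0.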

How the data were processed

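SLAM-seq 3′ end libraries of MOLM-13 cells, 3 in DMSO and 3 in C646, were analysed, grouped by the treatment in their labels. With SLAM-Dunk 0.4.1, the authors mapped reads to GRCh38, and for each 3′ UTR entry they deposited raw counts of reads, conversions, multimapped reads and T > C reads. The authors also deposited a signal, the coverage summed over T positions, the reads as CPM and the conversion rate as a fraction, of which the last was not used. The submitters' processing notes name CASAVA 1.9. The column of T bases is 0 throughout C646 replicate 3, and was not used in tests.

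Counts were summed over the entries of a gene. Multimapped reads made up at most 1.41% of the reads of a member. edgeR 4.0.16 in R 4.3.3 was used (glmQLFit, glmQLFTest, filterByExpr, Benjamini-Hochberg adjustment), with an adjusted p of 0.01 or less and a log2 fold change of 1 or more in either direction for a call. T > C reads were scaled by the total of all reads after TMM. The odds model held the library, the kind of read (T > C or other) and the interaction of kind with treatment. Rates per T base and ratios went into two-sided exact permutation tests. The scripts were tested on simulated data. Alternatives were other scalings, filters and entries, DESeq2 1.42.0, a replicate block and the removal of each library.

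Depth was 7252597 to 10225448 reads per library, and intervals cover counting error only. The genes named are the 10 members, the lowest and highest tested gene of each other list, and all genes of the rest of de novo synthesis. The exceptions are UCKL1, TK1, CMPK2 and the cell type markers with values, named after their values were seen. The members and lists were chosen with earlier results of these data known. Summaries and plots used scipy 1.17.1, numpy 2.4.6, pandas 2.3.3 and matplotlib 3.10.9 under Python 3.11.15.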

Additional observations from a re-analysis of the deposited data

How the results depend on the processing

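The count of 8 members with lower new RNA was 3 under TMM on the T > C reads and 3 of 4 tested under a filter of 50 or more T > C reads in the mean library, which leaves 6 members untested. Scaling by all filtered reads gave 7, where UMPS had a log2 FC of −0.89, and 7 to 8 members were lower with each library left out. Filtered reads numbered 14290308 to 18225338 in DMSO and 13378985 to 16504161 in C646. The part of them on 3′ UTRs was larger in each C646 library than in each DMSO library. For all genes, 613 were lower and 699 higher under TMM on the T > C reads, 1038 and 125 under the filter of 50, and 1990 to 2603 lower and 206 to 263 higher with each library left out. Of the other nucleotide genes, 5 were lower and 1 higher under TMM on the T > C reads, 11 lower when scaled by all filtered reads, 7 under the filter of 50 and 12 to 15 with each library left out. The T > C odds gave 5 to 7 members with each library left out, and 6 with all libraries, where 38.3% of all tested genes had lower odds. The share of all genes with a library left out is not given here. IMPDH2 and PAICS reversed to 0.29 and 0.43 under TMM on the T > C reads, and to 0.30 and 0.41 as differences from the median of all tested genes, a comparison added after seeing the data. On that last scale UMPS, ATIC and ADSL stood at −0.26, −0.46 and −0.67. In all reads, ATIC, IMPDH2 and PAICS reversed to 0.014, 0.16 and 0.069 when scaled by all filtered reads, and IMPDH2 to 0.021 without DMSO replicate 2 and 0.030 without DMSO replicate 3, in a range of −0.18 to 0.030 over the libraries left out. The cause was not tested, except that fewer genes are tested under the filter. PPAT, IMPDH1 and DHODH were called in new RNA in each setting in which they were tested.

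With the replicate block, 8 members were lower in T > C reads, 6 in T > C odds and 0 in all reads (3 at an adjusted p of at most 0.01 at any fold, ADSL beside IMPDH1 and CAD), and 2586 genes were lower and 226 higher in all. Deviations of same-numbered libraries correlated by 0.030, 0.044 and 0.065 in T > C reads and by −0.0014, 0.136 and 0.231 in all reads, against means of −0.023 and −0.064 between libraries with different numbers. Not every pair was above 0.1, and the numbers were not taken to pair the samples. Counts were low for DHODH, GART, PFAS, TK1 and UCK1, with 1 T > C read or fewer in a C646 library.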
